A study of Mus musculus with 10 samples.

Results

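RE1 peaks are the REST-bound regions of 3xTg mouse cortex whose own DNA holds a match to RE1, the recognition element of REST. They were chosen by the authors' peak calls in the 3xTg list, a measured value, and by the reference sequence under each peak. A peak was counted when its mm10 sequence held, on either strand, a match with at most 5 mismatches to the RE1 consensus of 20 positions, in which position 3 may be A or C. There were 309 such peaks among the 5077 peaks of the 3xTg list outside chromosome Y (6.09%). The same search found RE1 sites in 213 of the 3006 peaks of the WT list.

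The assay was ChIP-seq, the sequencing of chromatin fragments pulled down with an antibody to the C-terminal part of REST. The WT group and the 3xTg group were female mice aged 11 months, with 4 samples per genotype, each a pool of 4 cortices, and 1 input library of unselected chromatin per genotype. 3xTg mice, a model of Alzheimer's disease, combine mutant transgenes for human APP and tau with a knock-in mutation in PS1, a presenilin gene. They were on a mixed background of C57BL/6J and 129Sv/Ev, and the WT mice were littermate controls. The question was where REST binds in cortex with this pathology. The tissue was bulk cortex, so neurons and glia were not separated, and peak lists hold no cell type markers to check. Each genotype has 1 deposited list that combines its 4 samples, so a peak has 1 value per genotype, with no replicate spread, and no difference between genotypes was tested. Intervals below are 95% Wilson intervals over peaks and cover counting error only. The lowest fold enrichment was 8.50 in the 3xTg list and 6.003 in the WT list, although the stated filter was the same for both, so an absent peak does not have the same meaning in both lists.

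REST is a zinc finger repressor, and RE1, also called NRSE, has a left arm and a right arm that different zinc fingers contact. REST bound there recruits corepressor complexes that hold histone deacetylases and demethylases. It is best known for silencing neuronal genes, those for synaptic proteins, ion channels and neuropeptides among them, in cells that are not neurons and during development. In the adult brain it is also present in neurons and has been studied in ageing and neurodegeneration.

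The sequences below show what the RE1 peaks have in common and how far a match may depart from the consensus. Each is printed 5′ to 3′ in the orientation of the consensus, with mm10 coordinates and the strand of the genome; capitals mark bases that match the consensus and lower case marks mismatches. The first group belongs to peaks of high fold enrichment or few mismatches, the second to genes of neuronal function named later, and the last pair to sites with 5 mismatches.
Kcnk9 (chr15:72568705-72568724, plus strand): GGCGCTGTCCAcGGTGCTGA
Vstm2l (chr2:157913273-157913292, plus strand): GGAGCTGTCCgTGGTGCTGA
Mroh5 (chr15:74076154-74076173, plus strand): GGAGCTGTCCATGGTcCTGA
Npas4 (chr19:4989161-4989180, minus strand): GGAGCTGTCCgcGGTGCTGA
Erich1 (chr8:14072728-14072747, minus strand): GGtGCTGTCCtTGGTGCTGA
Iqsec3 (chr6:121473218-121473237, plus strand): GGAGCTGaCCgTGGTGCTGA
Igsf21 (chr4:140259122-140259141, plus strand): aGCtCTGTCCATGGTGaTGA
Celsr3 (chr9:108825919-108825938, minus strand): aGtGCTGcCCAcGGTGCTGA
Vgf (chr5:137030274-137030293, plus strand): GGCGCTGTCCAgcGTGCTGA
Chgb (chr2:132781795-132781814, minus strand): GGAGCTGTCCggGGTGCTGA
Chrnb2 (chr3:89764454-89764473, plus strand): aGCGCTGTCCgTGGTGCTGA
Scn2a (chr2:65619965-65619984, minus strand): GGtGCTGTCCgTGGTGCTGA
Snap25 (chr2:136714339-136714358, minus strand): atCGCTGTCCgcGGTGCTGA
Mir212 and Mir132 (chr11:75173522-75173541, plus strand): GcCGCTGTCCgcGGTGCTGA
Crh (chr3:19694629-19694648, plus strand): GaCGCTGTCCgcGGTGCTGA
C630043F03Rik and Tle1 (chr4:72202191-72202210, plus strand): aGAGCaGTtCATGGaGCTGt
H2bc9 (chr13:23543214-23543233, minus strand): GtAcgTGTaCAaGGTGCTGA

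The RE1 peaks fell into a class of close matches and a class of loose ones. No peak held a perfect site. The best site had 1 mismatch in 13 peaks, 2 in 52, 3 in 86, 4 in 44 and 5 in 114. The same search was run in 4973 windows of the same widths, each 10 kb downstream of a 3xTg peak and clear of peaks of either list. In the windows no best match had 1 or 2 mismatches, 3 windows had 3, 13 had 4 and 80 had 5. So 151 peaks against 3 windows held a site with at most 3 mismatches, and the split at 3 was chosen after these counts were seen. Just outside the limit, 578 peaks (11.4%) and 522 windows (10.5%) had a best match with 6 mismatches. With the search narrowed to 200 bases around the summit, the base of highest signal in a peak, 139 peaks and 1 window held a site with at most 3 mismatches, 29 peaks and 1 window a best match with 4, and 24 peaks and 13 windows a best match with 5.

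**Figure D1:**
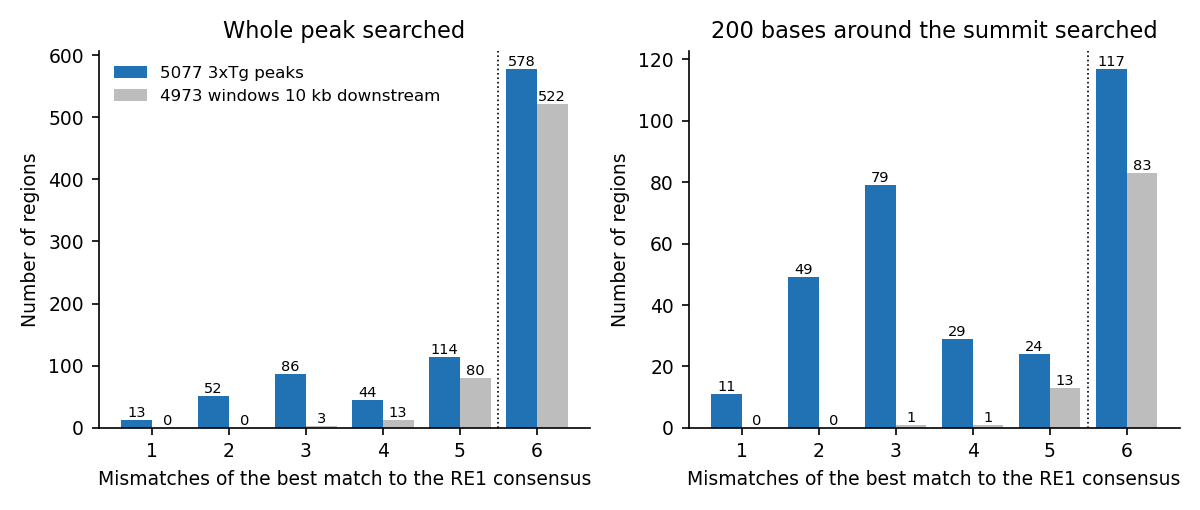
Number of regions (vertical axis) by the mismatches of their best match to the RE1 consensus (horizontal axis), for 3xTg peaks in blue and windows 10 kb downstream in grey, over the whole region on the left and 200 bases around the summit on the right; the vertical scales differ. Matches with 1 or 2 mismatches occurred in peaks and in no window, and the blue and grey bars come close at 5 and 6 mismatches.

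Close matches lay at the summit. The centre of the best site was within 100 bases of the summit in 138 of the 151 peaks with at most 3 mismatches (91.4%, interval 85.8 to 94.9), in 30 of the 44 with 4 (68.2%, 53.4 to 80.0) and in 25 of the 114 with 5 (21.9%, 15.3 to 30.4). Over all RE1 peaks the share was 62.5% (56.9 to 67.7), and over all 3xTg peaks, whatever the quality of their best match, it was 39.8%. Among equally good matches the one nearest the summit was kept, so 39.8% is not a background level. The share was 20.9% with 6 mismatches, 27.2% with 7 and 43.9% with 8. The median distance was 37.5 bases with 1 mismatch, 12.5 with 2, 24 with 3, 41.5 with 4 and 279.5 with 5. Peaks just outside the limit, with 6 mismatches, had a median of 277.0. Of the 151 close matches, 13 lay beyond 100 bases. The 5 farthest, picked after their values were seen, each had 3 mismatches and were near Pomgnt2 (337.5 bases), Kcnip2 (344.5), 1500026H17Rik (830.5), Pcsk2, a prohormone convertase (1046.5), and Rnf13 (1204.5).

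**Figure D2:**
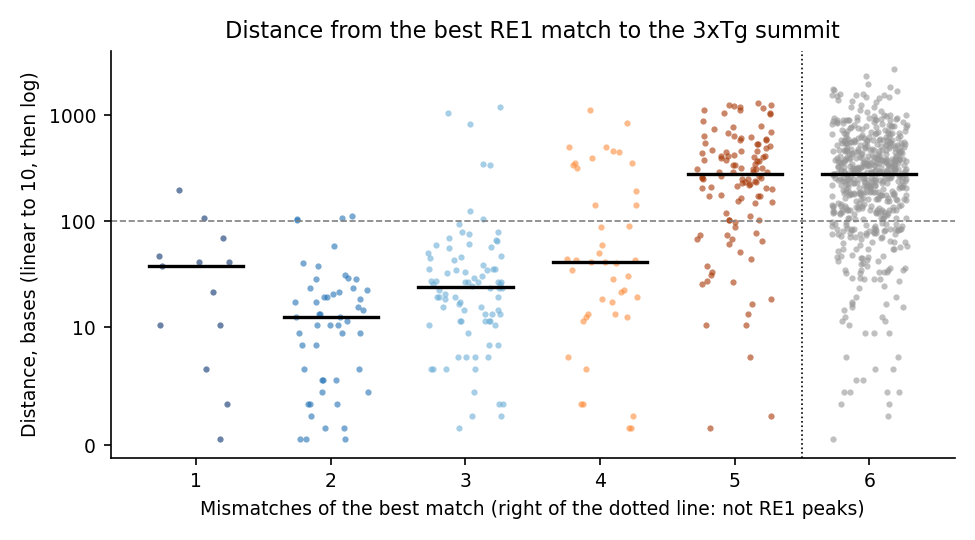
Distance in bases from the centre of the best RE1 match to the 3xTg summit (vertical axis, linear to 10 and log above) by the number of mismatches (horizontal axis); each point is a peak, black bars are medians and the dashed line marks 100 bases. Peaks with 1 to 3 mismatches crowd below the dashed line, with medians of 12.5 to 37.5 bases, and those with 5 lie as far from the summit as those with 6, which are not RE1 peaks.

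The WT list gave this distance in samples that the choice of peaks did not use. Of the 309 RE1 peaks, 215 overlapped a WT peak by at least 1 base, and in 187 of these (87.0%) the WT peak held the site itself. The share was 118 of 120 for at most 3 mismatches, 31 of 34 for 4 and 38 of 61 for 5. The median distance from the site to the WT summit was 24.5 bases for at most 3 mismatches, 29.0 for 4 and 261.5 for 5. The corresponding distances to the 3xTg summits of the same peaks were 19, 32.5 and 257.5 bases. The WT and 3xTg summits themselves were a median of 24 bases apart at these peaks and 33 bases apart over all 2489 3xTg peaks with a WT peak.

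The sites did not match the consensus equally at all positions. Among the 151 sites with at most 3 mismatches, at least 94.7% matched at positions 5, 6, 8, 9 and 10 in the left arm, and at least 96.0% at positions 13, 14, 15, 17 and 18 in the right arm. Position 15 matched in every one of these 151 sites. The bases between the arms matched least: 41.7% matched at position 11 and 56.95% at position 12. At position 11 G was more frequent than the consensus A (68 against 63 sites), and at position 12 C stood in 30 sites against 86 with the consensus T. Positions 2 and 16 followed, with 75.5% and 77.5%. In all, 116 of the 151 sites (76.8%) departed from the consensus at position 11, 12 or both. At position 3, where the consensus allows either base, A stood in 63 sites and C in 71.

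Among the 44 sites with 4 mismatches, positions 11 and 12 matched in 45.5% and 52.3%, and position 10 matched in all. In the left arm 45.5% matched at position 2 and 72.7% at position 8, where 94.7% of the closest sites did. In the right arm they matched more often at position 16 (88.6% against 77.5%) and less often at position 20 (70.5% against 82.8%). The sites with 5 mismatches ran from 59.6% to 86.0%, and their lowest values were also at positions 12 and 11 (59.6% and 62.3%). The 25 of them within 100 bases of the summit matched at position 13 in 96% and at positions 11 and 12 in 48% and 56%. The matches in the downstream windows ran from 68.8% to 86.5%, and their middle positions 11 and 12 matched at 70.8% and 71.9%. The complete right arm, 8 bases read as GGTGCTGA, stood in 85 of the 151 closest sites (56.3%), in 16 of the 114 sites with 5 mismatches (14.04%), 7 of them among the 25 near the summit (28%), and in 8 of the 96 window matches (8.33%). Of those 16, 6 were the same 20 bases repeated in coding exons of H2b histone genes, described below.

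**Figure D3:**
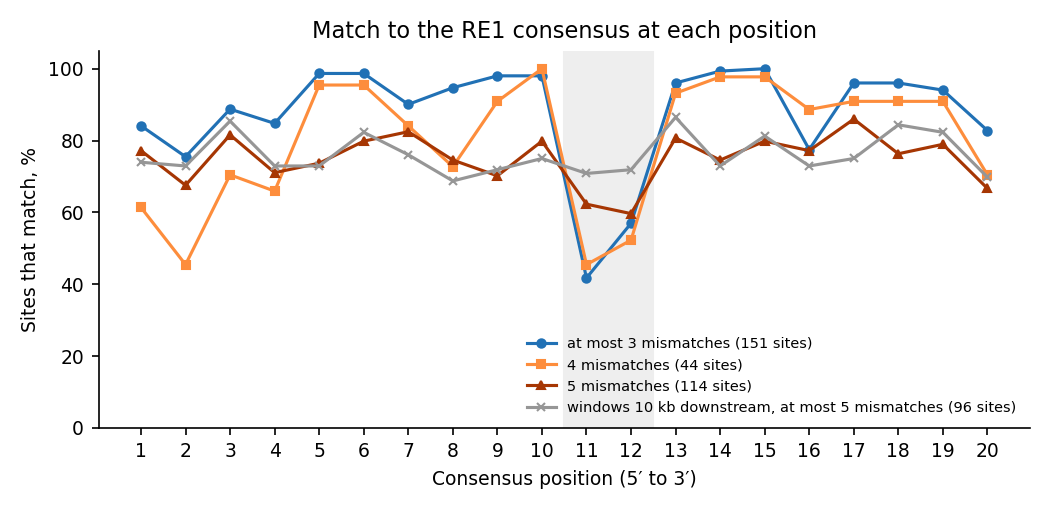
Share of sites that match the RE1 consensus (vertical axis, %) at each of its 20 positions (horizontal axis), by number of mismatches and in windows 10 kb downstream; the grey band marks positions 11 and 12, between the arms. In the band, sites with at most 3 and with 4 mismatches lie between 41.7% and 56.95%, and those with 5 have their lowest values, 62.3% and 59.6%; the windows stay between 68.8% and 86.5% along the site.

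Repeated DNA held few of the sites. In 9 of 309 RE1 peaks (2.91%) at least 10 bases of the site were in a masked repeat, against 18 of the 96 window matches (18.8%). For the best match of all 3xTg peaks the share was 8.43%, and just outside the limit, with 6 mismatches, 7.09%, so peaks in general were below the windows. A second match with at most 5 mismatches was present in 60 RE1 peaks (19.4%). Npas4 had 6 matches in a peak of 5805 bases. The site lay on the plus strand of the genome in 169 peaks, and of 176 sites within 5 kb of their nearest start site, 97 (55.1%) pointed in the direction of transcription.

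The median width of the RE1 peaks was 1261 bases against 937 over all 3xTg peaks, and their median GC content 51.8% against 46.8%. The 578 peaks just outside the limit, with 6 mismatches, were close to them, with medians of 1236.5 bases and 51.04%. Among the downstream windows, 20 with a match had the widths of the widest set of peaks and 5 those of the narrowest. Of the 507 widest peaks 77 were RE1 peaks, 33 of them with 5 mismatches, and of the 508 narrowest 25, of which 2 had 5 mismatches. Of sites with at most 3 mismatches, 26 were in the widest set and 21 in the narrowest.

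Fold enrichment, the ratio of ChIP signal at the summit to the local background, had its lowest median at sites with 5 mismatches. The median was 12.3 (interval 11.6 to 13.1) for the 309 RE1 peaks and 10.8 (10.7 to 11.0) over all 3xTg peaks. It was 13.1 (12.01 to 15.02) with at most 3 mismatches, 12.9 with 4 and 10.8 with 5, the last at the level of the whole list. Of the 508 peaks of highest fold enrichment, 70 were RE1 peaks (13.8%), 46 of them with at most 3 mismatches. Of the 507 lowest, 15 were RE1 peaks (2.96%), 6 of them with at most 3 mismatches. The number of mismatches did not order the peaks: the 13 sites with 1 mismatch ranged from a fold enrichment of 8.84 to 56.7.

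The RE1 peaks of highest fold enrichment were near genes with neuronal and other roles, and 7 of the 12 highest had no start site within 5 kb. The highest, of rank 3 in the 3xTg list, covered the starts of the noncoding gene C630043F03Rik and of Tle1, a Groucho corepressor. It had a fold enrichment of 66.5 in 3xTg and 53.1 in WT. Its site was 957 bases downstream of the C630043F03Rik start and 1308 bases upstream of the Tle1 start. The same site had 5 mismatches and lay 1200.5 bases from the summit, away from the strongest signal. The next was 12321 bases from the start of Igsf21, an adhesion protein of inhibitory synapses, with 60.6 in 3xTg and 51.3 in WT. An intron of Phf21b, which encodes a PHD finger protein, held a peak with 57.8 and 50.7. These peaks stood near the top of both lists.

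Kcnk9, which encodes the two-pore potassium channel TASK-3, had a site with 1 mismatch 21016 bases upstream of its start, 6.5 bases from a summit with a fold enrichment of 56.7 in 3xTg and 54.4 in WT, rank 3 there. Upstream of Vstm2l, a peak with 56.6 and 46.3 also had 1 mismatch. Npas4, a transcription factor induced by neuronal activity, had its site in an intron 800 bases downstream of the start, with 55.8 and 53.7. An intronic site of Xkr6 had 55.4 and 46.3, and one of Erich1 54.6 and 54.1.

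Iqsec3, an exchange factor of inhibitory synapses, had its site in a coding exon, with 54.1 in 3xTg and 42.1 in WT. Celsr3, an atypical cadherin of axon guidance, had 52.1 and 44.3, but its site of 4 mismatches lay 1121.5 bases from the summit. A site in an intron of Rbfox3, the gene of the neuronal marker NeuN, had 51.7 and 41.0, and a site far from any start, nearest to Mroh5, had 49.2 and 38.4. All of the 12 highest RE1 peaks had a WT peak, at ranks 3 to 23 of the WT list, and 9 of the 12 sites were within 100 bases of the summit.

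Sites with the fewest mismatches were not confined to strong peaks. Of the 13 peaks with 1 mismatch, Kcnk9, Vstm2l and Mroh5 were among the highest above, and a site in an intron of Myo18b had a fold enrichment of 34.3 in 3xTg and 24.9 in WT. An intron of Wdr25 had 15.4 and 10.6, and an intron of 5031439G07Rik 14.9 and 6.18. Ptprn, a phosphatase-like protein of dense-core vesicles, had 12.1 and 6.65. A site in the 3′ UTR of St6galnac5, a sialyltransferase of the brain, had 11.7 and 9.08. A site 15954 bases from the start of Lrfn3, a synaptic adhesion protein, had 9.84 and 6.997, and one 83639 bases from Thy1, a neuronal surface protein, 9.34 and 6.34.

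The remaining 3 peaks with 1 mismatch had no WT peak. They lay near Rapgef1, an activator of Rap1, with a 3xTg fold enrichment of 9.72, in an intron of Prmt8, a brain arginine methyltransferase, with 8.88, and in an intron of the collagen gene Col5a3, with 8.84. The peaks of Prmt8 and Col5a3 were near the lowest value in the 3xTg list.

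RE1 peaks had a WT peak more often than the list as a whole. A WT peak overlapped 215 of 309 by at least 1 base (69.6%, interval 64.2 to 74.4), beside 49.0% of all 3xTg peaks. The share was 45.0%, beside 35.1% of all peaks, when 50% of each peak had to be covered, and 39.1%, beside 18.5%, when each list was first limited to fold enrichments above 10. With 1 base of overlap it was 79.5% (72.3 to 85.1) with at most 3 mismatches, 77.3% with 4 and 53.5% (44.4 to 62.4) with 5. It was larger at higher fold enrichment, among RE1 peaks and over the list. At a 3xTg fold enrichment of 20 or more, 69 of 69 RE1 peaks and 490 of 491 of all peaks had a WT peak. Between 10 and 20 the shares were 76.8% (69.5 to 82.8) of 151 RE1 peaks and 59.4% (57.6 to 61.3) of all peaks, and below 10 they were 33.7% (24.7 to 44.0) of 89 and 20.5% (18.7 to 22.4). With 5 mismatches the shares in the lower bands were 62.5% (49.4 to 74.0) and 23.8% (13.5 to 38.5), with intervals that include those of all peaks.

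The 3xTg fold enrichment was above the WT value at 212 of the 215 RE1 peaks in both lists, and at 99.5% of all 3xTg peaks with a WT peak, so this direction held over the whole list. The median of the 3xTg value over the WT value was 1.59 at RE1 peaks and 1.70 over all 2489. The exceptions were Smim17 (38.8 in 3xTg, 40.6 in WT), Snap25 (18.99, 19.60) and a second peak near Igsf21 (9.23, 9.24), named here because they are so few. When the 2489 were ranked in each list by fold enrichment, a median RE1 peak stood at 1045.0 in 3xTg and 879.0 in WT. Of the 120 with at most 3 mismatches 87 (72.5%) stood higher in the WT order than in the 3xTg order, of the 61 with 5 mismatches 27 (44.3%), and of all 2489 peaks 50.5%.

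**Figure D4:**
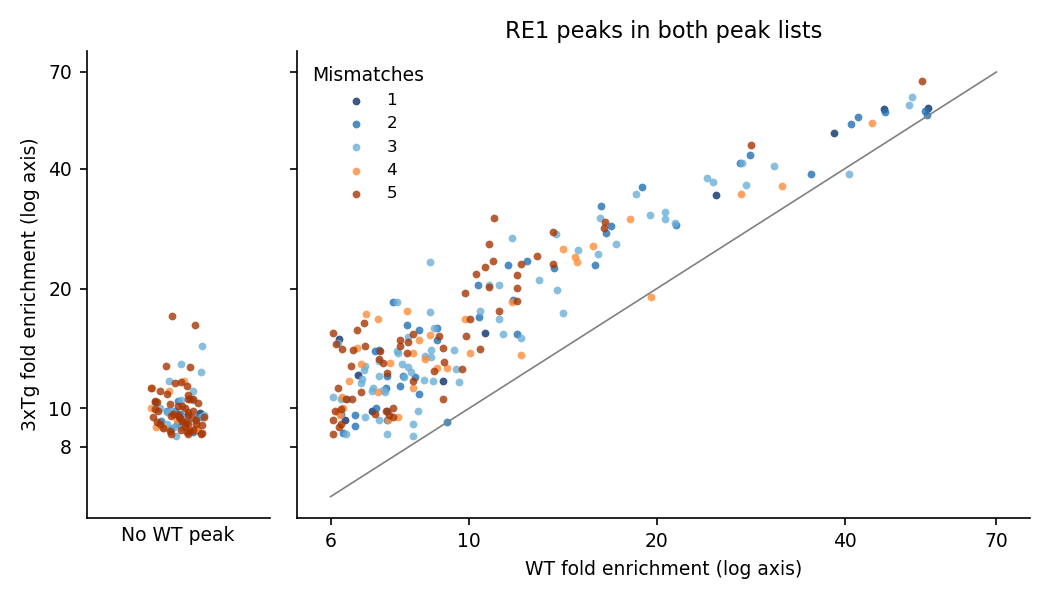
Fold enrichment of the RE1 peaks in 3xTg (vertical log axis) against WT (horizontal log axis) for the 215 in both lists, with the 94 without a WT peak in the strip on the left; colours give the mismatches and the line marks equal values. Nearly all points lie above the line, and the points of the left strip lie between 8.54 and 17.1.

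The 94 RE1 peaks without a WT peak were low in the 3xTg list. Their fold enrichment ran from 8.54 to 17.1 with a median of 9.64, against 9.67 over all 2588 3xTg peaks without a WT peak. The best site had 5 mismatches in 53 of them, 4 in 10 and at most 3 in 31. The highest was at H2bc9 and H3c7, histone genes, with 17.1 and a site in the coding exon of H2bc9, 1115.5 bases from the summit. Next was an intron of Tcf4, a basic helix-loop-helix factor, with 16.2. A site 10759 bases from Pomgnt2, a glycosyltransferase, had 14.3, and one 4236 bases upstream of Chga, the chromogranin A gene, had 12.9.

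Introns of Dnm3, which encodes a dynamin, and Phactr3 held peaks with 12.8 and 12.3. Got2, the mitochondrial aspartate aminotransferase, had 12.7 and Ube2g1, a ubiquitin-conjugating enzyme, 11.7, with sites 1258.5 and 456.5 bases from their summits. Of these 8 highest, the peaks near Chga and in Phactr3 had their site within 100 bases of the summit. The 3 lowest RE1 peaks of all were upstream of Tmem181a, with 8.51 in 3xTg and 8.12 in WT, in an intron of Crh, the corticotropin-releasing hormone gene, with 8.54, and at Megf9, with 8.60. Other RE1 peaks tied with Megf9 at 8.60.

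In the reverse direction, 188 of the 213 WT peaks with an RE1 site lay on an RE1 peak of the 3xTg list, and 25 lay on no 3xTg peak. Their WT fold enrichment was 6.02 to 7.34, so all 25 were below the lowest value in the 3xTg list. Among them were sites in introns of Hcn3, a pacemaker channel, with 6.43, and of Hpca, the calcium sensor hippocalcin, with 6.12. Another site, with 6.11, lay in an intron and upstream of the nearest start, that of Nefh, the heavy neurofilament protein. These were picked after their values were seen.

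The place of RE1 peaks relative to genes differed with the quality of the site. Any base of the peak lay within 1 kb of a start site, here called a promoter, at 155 of 309 RE1 peaks (50.2%, interval 44.6 to 55.7) and at 33.7% of all 3xTg peaks. The share was 39.7% (32.3 to 47.7) with at most 3 mismatches, 56.8% with 4 and 61.4% (52.2 to 69.8) with 5, and 50.5% just outside the limit, with 6. A start site within 5 kb was present at 179 (57.9%, 52.4 to 63.3), against 40.7% of all 3xTg peaks. With at most 3 mismatches it was present at 50.3% (42.4 to 58.2). The site centre was over 50 kb from any start site in 53 RE1 peaks (17.2%), and the best match was that far in 25.4% of all 3xTg peaks.

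The site lay between genes in 116 RE1 peaks, in an intron in 126, in a coding exon in 33, in a 5′ UTR in 26, in a 3′ UTR in 4 and in an exon of a noncoding transcript in 4. Those shares were 37.5%, 40.8%, 10.7%, 8.41%, 1.29% and 1.29%. Over all 3xTg peaks the best match lay between genes in 39.4%, in an intron in 48.2% and in a coding exon in 4.63%. It lay in a 5′ UTR in 6.05%, in a 3′ UTR in 0.65% and in a noncoding exon in 1.14%. Of the sites with 5 mismatches, 22 of 114 (19.3%) were in coding exons, against 8 of 151 (5.30%) of those with at most 3. Of those 22, 6 were the repeated H2b site described below, and with 6 mismatches the share was 10.9%. Of 74 sites with at most 3 mismatches within 5 kb of the nearest start, 44 (59.5%) were downstream of it.

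Within 5 kb of an RE1 peak lay the start sites of 230 genes, 0.879% of 26180 annotated genes, and 87 of these were near a site with at most 3 mismatches. Any 3xTg peak was within 5 kb of 9.84% of genes. Chga and Disp3 had 2 RE1 peaks each. The lists of neuronal genes described next, with a list of mitochondrial genes beside them, were chosen with earlier results of these data known, and their shares are read against these percentages with no test. Over all lists but the mitochondrial one, 48 of 615 genes had an RE1 peak (7.80%), 27 of them with at most 3 mismatches, and 114 had any 3xTg peak (18.5%).

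Granins and other cargo of dense-core vesicles had sites close to the consensus. Of 43 genes for granins, neuropeptides and their processing, 5 had an RE1 peak and 7 any 3xTg peak, and all 5 had at most 3 mismatches. Vgf, a secreted granin precursor, had its site 11 bases upstream of the start and 17.5 bases from the summit, with a fold enrichment of 43.4 in 3xTg and 28.2 in WT. Chgb, chromogranin B, had 36.1 and 18.9. Chga had the distal peak named above and one in its gene 308 bases downstream of the start, with 11.1 and 7.28. The site of Hcrt, the orexin precursor, was 3914 bases from its start inside the neighbouring channel gene Kcnh4, with 10.5 and no WT peak. Crh had 8.54 and no WT peak.

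Synaptic vesicle genes had mostly loose sites. Of 60 genes, 7 had an RE1 peak and 18 any 3xTg peak, and Vgf, which is also in this list, was the only one with at most 3 mismatches. Snap25, a SNARE protein of vesicle fusion, had a site with 4 mismatches in an intron and 18.99 in 3xTg and 19.60 in WT. Stxbp5l, a tomosyn, had 14.7 and 7.98, and Rims2, an active zone protein, 13.98 and 6.518. Synj1, a lipid phosphatase of vesicle recycling, had 12.5 and 9.76, and Ppfia3, a liprin, 9.67 and 7.06. Each of these 4 had 5 mismatches, with the site 31.5 to 103.5 bases from the summit.

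Ion channel genes followed. Of 51 genes for voltage-gated and inward-rectifier potassium channels, 4 had an RE1 peak and 9 any 3xTg peak. Kcnip2, a channel-interacting protein, had 12.8 in 3xTg and 6.81 in WT, with 3 mismatches. Kcnh4, with 10.5, and Kcnc1, with 9.94, had no WT peak. The Kcnh4 site had 3 mismatches, 11.5 bases from the summit, and the Kcnc1 site had 5, 546.5 bases away. Kcnk12 was the only one of 14 two-pore channel genes within 5 kb of any 3xTg peak, with 12.5 and 6.79 and 3 mismatches, and Kcnk9 lay beyond that distance.

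Of 40 sodium and calcium channel genes, 5 had an RE1 peak and 9 any 3xTg peak. Cacng3, an auxiliary subunit that also binds AMPA receptors, had 45.8 and 28.3, with 5 mismatches all in the left arm or between the arms and an intact right arm. Scn1a, a sodium channel, had 15.7 and 6.62 and Hcn2, a pacemaker channel, 10.05 and 7.101. The Scn1a site had 5 mismatches, 592.5 bases from the summit, and the Hcn2 site had 2, 28.5 bases away. Scn2a, a classical RE1 gene, had 9.49, and Cacna1b, the N-type calcium channel, 8.70. Both had 2 mismatches, sites 19.5 and 3.5 bases from the summit, and no WT peak.

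Receptor genes made up 2 of the lists. Of 50 genes for glutamate receptors and their scaffold, 4 had an RE1 peak and 9 any 3xTg peak. Among them were Dlgap3, a scaffold protein, with 12.6 in 3xTg and 9.54 in WT, Gria2, an AMPA receptor subunit, with 11.7 and 6.43, and Grin1, the obligate NMDA receptor subunit, with 9.85 and 8.28. Of 56 genes for inhibitory, cholinergic and monoamine transmission, 5 had an RE1 peak and 6 any 3xTg peak. Glra1, a glycine receptor subunit, had 36.4 and 27.8, and Chrnb2, a nicotinic receptor subunit, 18.8 and 11.8. Gabbr2, a GABA-B receptor subunit, had 14.6 and 6.16, Chrm4, a muscarinic receptor, 12.9 and 7.82, and Gabrd, a GABA-A receptor subunit, 9.67 with no WT peak. The Gabrd site had 5 mismatches, 2.5 bases from the summit.

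Genes of cell structure and RNA processing had RE1 peaks in similar numbers. Of 57 cytoskeleton and transport genes, 5 had one and 12 any 3xTg peak. Rundc3a had 34.5 and 18.5, Ina, the neurofilament protein internexin, 23.0 and 11.5, and Crmp1, a collapsin response mediator, 15.4 and 11.3. Mapk8ip1, a scaffold of axonal transport, had 10.4, and Dclk1, a microtubule-associated kinase, 8.85, both with no WT peak. The Mapk8ip1 site had 5 mismatches, 77.5 bases from the summit, and the Dclk1 site had 4, 191.5 bases away. Of 28 RNA-binding genes, 4 had an RE1 peak and 7 any 3xTg peak. Celf6 had 26.8 and 11.7, Celf4 15.4 and 8.13 and Srrm4, a neuronal splicing factor, 9.49 and 6.81, and Celf2 had 9.21 with no WT peak. These Celf4 and Celf2 sites had 5 mismatches and lay 586.5 and 119.5 bases from the summit. Another RE1 peak in an intron of Celf4, 11505 bases from its start, had 36.1 and 31.7. The site there had 4 mismatches, 7.5 bases from the summit. Of 72 axon guidance genes 1 had an RE1 peak, Celsr3, and 7 any 3xTg peak.

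Of 72 neural transcription factor genes, 4 had an RE1 peak and 8 any 3xTg peak. Scrt1, a neuronal repressor, had 29.96 in 3xTg and 18.1 in WT, Lhx3, a LIM homeodomain factor, 27.5 and 16.5, Hes1, a Notch target, 14.3 and 6.81, and Myt1 8.98 with no WT peak. The Hes1 site had 5 mismatches, 172.5 bases from the summit. Of 38 brain microRNA genes, 8 were near any 3xTg peak and 2 near an RE1 peak, Mir132 and Mir212, which share a peak with 27.4 and 13.8. Their site had 3 mismatches, lay between the microRNAs and was the same 20 bases as the site in a coding exon of Celf6.

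Of 29 genes for Rest and its corepressors, none had an RE1 peak, and 9 had any 3xTg peak. Of 6 Tle genes, 5 had a 3xTg peak and 2 an RE1 peak, Tle1 as above and Tle6 with 23.0 and 13.7, each with 5 mismatches and a site over 200 bases from the summit. Of 37 complex I genes of mitochondria, listed because they are unrelated to neuronal function, none had an RE1 peak and 5 had any 3xTg peak.

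Some RE1 peaks shared their site. In 34 of 309, the same 20 bases occurred at another RE1 peak. The most repeated, printed above for H2bc9, stood in coding exons of 6 H2b histone genes on chromosome 13: H2bc4, H2bc9, H2bc12, H2bc13, H2bc22 and H2bc23. Their 3xTg fold enrichment was 8.67 to 17.1, and H2bc12 alone had a WT peak, with 7.75. The site lay 177.5 to 1115.5 bases from the summit in these 6. A further 3 peaks on chromosome 17 near Tmem181a, Tmem181b-ps and Dynlt1a shared another site, with 8.51, 11.7 and 11.6 in 3xTg and 8.12, 8.74 and 6.71 in WT. If the sequence around a shared site is also alike, reads may map to several of these peaks, so the values of each are uncertain. How alike the surrounding sequences are was not tested. Without the 34 peaks, 68.4% of the remaining 275 overlapped a WT peak.

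The arms of RE1 were also searched apart. The left arm was the first 10 and the right arm the last 8 positions of the consensus, in the same orientation, 0 to 30 bases apart, within 200 bases around the summit of every 3xTg peak. With at most 3 mismatches over both arms, 172 peaks had the consensus gap of 2 bases, all of them RE1 peaks, as the rule requires, against 1 window. Gaps of 7 to 10 bases occurred in 99 peaks and 2 windows: 18 peaks had a gap of 7, 28 of 8, 39 of 9 and 20 of 10, some with several. Of the 99, 31 were RE1 peaks and 68 were not. Gaps of 0 or 1 base occurred in 21 peaks and 2 windows, gaps of 3 to 6 bases in 34 peaks and 6 windows, and gaps of 11 to 30 bases in 162 peaks and 31 windows.

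A stricter limit of at most 2 mismatches over both arms was chosen after the data were seen. It left 134 peaks and 1 window at a gap of 2, 71 peaks and no window at 7 to 10, 11 peaks and no window at 0 or 1, 3 peaks and 1 window at 3 to 6, and 37 peaks and 3 windows at 11 to 30. Of the 71, 57 were not RE1 peaks.

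The 20-base rule thus leaves out peaks in which both arms are present at another distance. The 68 with gaps of 7 to 10 bases had a median 3xTg fold enrichment of 14.8, and 49 overlapped a WT peak. For the 57 under the stricter limit the median was 16.4, 44 overlapped a WT peak, and 16 had no mismatch in either arm. In 5 of the 57, at least 10 bases of the pair were in a masked repeat. Pairs near Taf1b, Ppp6c, Aasdhppt, Gm30132, Nxph2, Zfp954, Zfp820 and Zfp994, each with a gap of 9, were nearly the same sequence. They are therefore not separate examples of a spaced site. The examples below, chosen after their values were seen, are printed as above, with the bases between the arms in lower case.
Scg2 (chr1:79440026-79440043, minus strand, gap 0): GGAGCTGTCCGGTGCTGA
Erc2 (chr14:27596475-27596493, plus strand, gap 1): GGAGCTGTCCaGGTGCTGA
Lrp11 (chr10:7589818-7589842, plus strand, gap 7): GcCGCTGTCCgcacgccGGTGCTGA
Unc13a (chr8:71671728-71671753, minus strand, gap 8): GGCGCTGTCCgcgcccccGGTGCTGA
Actl6b (chr5:137553564-137553590, plus strand, gap 9): GGAGCTGTCCggccgcctcGGTGCTGA
Mir137 (chr3:118431570-118431596, plus strand, gap 9): tGAGCTGTCCactggtccaGGTGCTGA

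Lrp11 had a fold enrichment of 48.9 in 3xTg and 24.8 in WT, and Unc13a, a vesicle priming protein, 44.0 and 23.8. Actl6b, a neuronal subunit of the BAF remodelling complex, had 27.4 and 16.5, Erc2, an active zone protein, 20.4 and 11.2, Scg2, secretogranin II, 18.1 and 12.7 and the peak near Mir137, a brain microRNA, 16.4 and 10.8. In the 20-base search these peaks had 6 to 8 mismatches and were not counted as RE1 peaks.

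**Figure D5:**
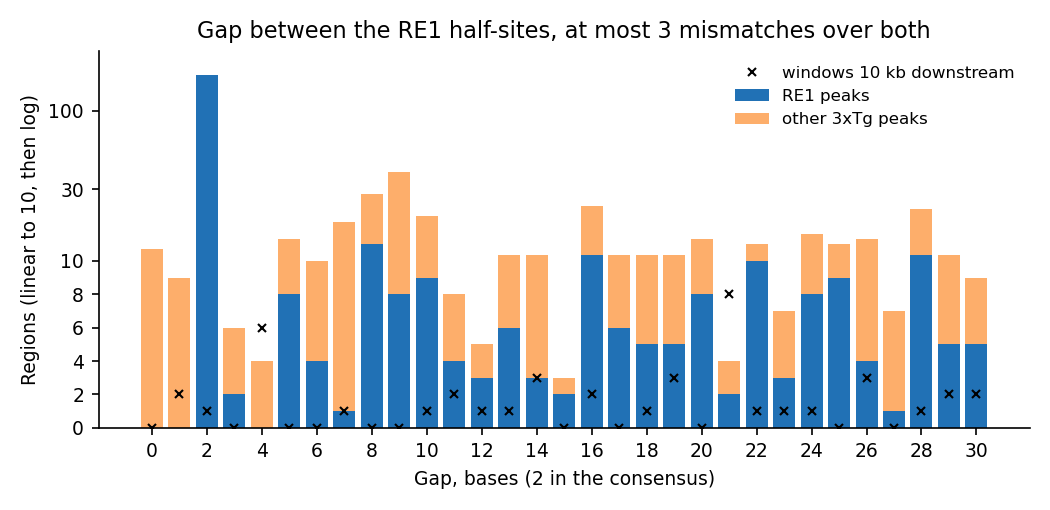
Number of regions (vertical axis, linear to 10 and log above) with both arms of RE1, at most 3 mismatches over the 18 positions, by the gap between the arms in bases (horizontal axis), within 200 bases around the summit; blue is RE1 peaks, orange other 3xTg peaks stacked on them, and crosses windows 10 kb downstream. The consensus gap of 2 stands at 172 peaks, gaps of 7 to 10 at 18 to 39 peaks, the longer gaps at 3 to 23 peaks, and the windows at 0 to 8.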

How the data were processed

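REST ChIP-seq of cortex from WT and 3xTg mice was analysed from 1 peak list per genotype. The authors called peaks with MACS on single-end reads aligned to mm10 and removed blacklisted regions; the submitters' notes name STAR 2.7.0a for replicates 3 and 4 and BWA for replicates 1 and 2 and the inputs. How the 4 replicates were combined is not given in the sources used here. The deposited lists give each peak a score (10 times the −log10 q, rounded down), a fold enrichment (a ratio), the −log10 p and −log10 q and a summit; p was not used. Every value is pooled, and read depth is not part of the lists.

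Peaks on chromosome Y (9 in 3xTg, 4 in WT) were left out. The consensus was read from the motif logo shown in the study. Every position on both strands was scanned, and the match with the fewest mismatches, then nearest the summit, was kept. Sequences and gene models came from RefSeq GRCm38.p6 (mm10), with start sites of curated transcripts and distances for genes measured from any base of the peak. Windows began 10 kb after the peak's end.

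The members and gene lists were chosen with earlier results of these data known. Genes were named by rule: the 12 highest RE1 peaks, the 12 with fewest mismatches, the 8 highest without a WT peak and the 3 of those with fewest mismatches, the 3 lowest, and up to 6 genes per list; some genes that the rule covers are not reported here, and others are said to be chosen after their values were seen. Peaks are named by nearest start site or by the gene that holds the site. Alternatives were stricter and looser mismatch limits, the summit window, a fold enrichment over 10, q under 1e-05, chromosome Y kept, a 50% overlap and other start-site rules. Sites with at most 3 mismatches, the removal of shared sites and a limit of 2 mismatches over both arms were added after the data were seen. The search was tested on simulated data with planted sites. Computations used Python 3.11.15, NumPy 2.4.6, SciPy 1.17.1, pysam 0.24.0 and matplotlib 3.10.9.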

Additional observations from a re-analysis of the deposited data

How the results depend on the processing

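No paired analysis was possible because each list pools the 4 replicates of a genotype, and for the same reason no replicate could be left out and no batch separated. The mismatch limit moved most values. At most 3, 4 or 6 mismatches gave 151, 195 or 887 RE1 peaks, of which 79.5%, 79.0% or 59.9% overlapped a WT peak and 91.4%, 86.2% or 35.4% had the site within 100 bases of the summit. At most 3 or 4 mismatches gave 39.7% or 43.6% at promoters and 50.3% or 52.3% with a start site within 5 kb, and at most 6 a median fold enrichment of 11.4. Searching 200 bases around the summit gave 192 RE1 peaks, of which 80.2% overlapped a WT peak, 39.1% were at promoters and 49.5% had a start site within 5 kb, with a median fold enrichment of 13.7. Requiring that 50% of each of the overlapping peaks be covered gave 45.0% with a WT peak, against 35.1% of all 3xTg peaks. A fold enrichment over 10 in the 3xTg list gave 84.1% against 65.6%, and over 10 in both lists 39.1% against 18.5%; over 10 in the 3xTg list, 67.7% had the site within 100 bases of the summit. Promoters taken from the summit gave 42.7% against 30.6%. Using 1 kb in place of 5 kb for genes is the promoter rule itself and so gave the promoter shares, 50.2% against 33.7%. Throughout, the share with a WT peak was higher for RE1 peaks than for all 3xTg peaks. The share at the summit was lower than in all 3xTg peaks with the limit of 6 mismatches alone. The share over all peaks is not a background level, because equal matches were resolved to the one nearest the summit. Keeping chromosome Y left the number of RE1 peaks at 309. A q under 1e-05 could remove no peak, because the lowest −log10 q in the 3xTg list was 28.96. At most 2 in place of 3 mismatches over both arms, chosen after the data were seen, took the peaks with a gap of 0 or 1 from 21 to 11, of 3 to 6 from 34 to 3 and of 11 to 30 from 162 to 37. Read depth is not in the lists, so whether deeper libraries would give the 94 RE1 peaks without a WT peak such a peak was not tested.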
